A study of Homo sapiens with 8 samples.

Results

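Metallothioneins are small, cysteine-rich proteins of the cytosol that bind zinc and copper, buffer the free level of these metals and sequester cadmium. Their genes are switched on when zinc occupies the transcription factor MTF1, which binds short metal response elements in their promoters, and glucocorticoids and oxidative stress also induce some of them. In liver, where they were studied early, they store zinc and copper after a metal load. MT2A is the widely expressed member of the family, and MT1E, MT1F, MT1G and MT1X are human copies of the MT1 group.

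The 5 genes described here, MT1E, MT1F, MT1G, MT1X and MT2A, were taken by name from 20 metallothionein genes and pseudogenes in a count table of 60718 genes. Of the 5, 4 also appear among the 11244 genes of the table of translation efficiency (TE), the ratio of ribosome-protected fragments (RPF) to input RNA. MT1G is the exception. Ribosome profiling was done in cells labelled HepG2, a human liver cancer line, that were wild type for METTL5 (METTL5-WT) or carried a CRISPR/Cas9 deletion in it (METTL5-KO). METTL5 is the methyltransferase that places N6-methyladenosine on 18S ribosomal RNA. Cells of both genotypes received cycloheximide, which stalls ribosomes, and from each lysate one portion became the input library and the remainder was digested with micrococcal nuclease for the RPF library. Each genotype had 2 lysates, so there were 8 libraries, 4 of each type. The authors describe HepG2 lines of both genotypes, wild type as well as knockout, as grown from single clones. The sources used here do not say which clone gave each replicate, so clone and genotype cannot be told apart. Nothing states that the replicates were separate cultures, and the p-values then measure only the spread between these samples.

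Input libraries held 10710226 to 15307257 counts, and the RPF reads recovered for listed genes ran from 3970779 to 9255921, with fewer in METTL5-WT than in METTL5-KO. METTL5 itself had 490 and 542 input counts in METTL5-WT against 208 and 151 in METTL5-KO, so the libraries fit their genotype labels. The cell line label fared differently. The 10 hepatocyte genes examined, among them ALB, AFP, APOA1 and TTR, had at most 9 counts in any input library, and FGB, SERPINA1 and TTR were at 0 in every one. Their summed level was 0.178 to 0.280 CPM (counts scaled to a common library total) in METTL5-WT against 0.552 to 0.915 in METTL5-KO. Among 13 markers of other cell types, the collagen gene COL3A1 had 2536 to 3317 counts and COL1A1 had 429 to 937. DCN had 83 to 170. Every other marker of the list, COL1A2 included, had at most 9 counts in any library. The summed level of the 13, nearly all of it from COL3A1, COL1A1 and DCN, was 341.7 to 343.7 CPM in METTL5-WT against 263.4 to 282 in METTL5-KO. The libraries therefore lack the defining transcripts of a hepatocyte-derived line, and what follows describes the cells sequenced under that label. Of the 3 of them tested in input, COL3A1 fell (-0.51, edgeR adjusted p = 0.00192), COL1A1 rose (0.44, adjusted p = 0.0225) and DCN was not called (0.14), so the lower sum was not shared by these genes. The part of these differences in the results below was not tested.

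The family sits in a cluster on the long arm of chromosome 16 (hg38, annotation from GENCODE release 44). MT2A occupies positions 56608584 to 56609497 and MT1E 56625475 to 56627112, both on the plus strand. MT1F follows at 56657731 to 56660698 and MT1X at 56682470 to 56684196, also on the plus strand, while MT1G at 56666730 to 56668065 is on the minus strand. Each has 3 exons and a coding sequence of 183 bases (186 in MT1G). The coding sequences of the 5 were 88.5% to 93.5% identical to each other. The promoters of MT2A and MT1X are shown for their matches to the elements through which metals act on the family, and those of MT1E, MT1F and MT1G were not analysed here. They come from RefSeq (GRCh38.p14, plus strand, 250 bases before to 50 after the start site), at chr16:56608334-56608633 for MT2A and chr16:56682220-56682519 for MT1X. Capitals mark each match, on either strand, to the core of the metal response element, TGCACNC or TGCGCNC, and no matches overlap.
MT2A promoter: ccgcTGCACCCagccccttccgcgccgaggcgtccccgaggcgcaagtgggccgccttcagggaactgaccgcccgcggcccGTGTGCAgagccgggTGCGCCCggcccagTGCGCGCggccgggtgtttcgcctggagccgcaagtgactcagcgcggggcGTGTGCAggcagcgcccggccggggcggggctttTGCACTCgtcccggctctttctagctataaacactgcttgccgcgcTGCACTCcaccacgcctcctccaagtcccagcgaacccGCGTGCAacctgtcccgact
MT1X promoter: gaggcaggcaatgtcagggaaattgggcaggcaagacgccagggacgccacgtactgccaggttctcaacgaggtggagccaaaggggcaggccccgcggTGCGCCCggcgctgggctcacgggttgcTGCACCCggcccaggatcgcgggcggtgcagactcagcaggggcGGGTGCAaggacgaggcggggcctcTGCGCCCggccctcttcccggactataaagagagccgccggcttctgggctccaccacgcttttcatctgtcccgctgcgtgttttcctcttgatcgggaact
The MT2A window held 8 core matches, 6 of TGCACNC and 2 of TGCGCNC, and the MT1X window held 4, with 2 of each. Of 35116 promoters of the same length, 12.1% held TGCACNC, 20% held TGCGCNC, 29.6% held at least 1 match to either, 0.601% held at least 4 and 0.074% held at least 6. The promoter of SLC30A1, the zinc exporter of the cell surface that also answers to MTF1, held 2. Among other family genes, MT1H held 8, as many as MT2A, and MT1B and MT4 held 3 each. MT1H, MT1B and MT4 had at most 2 input counts in any library, so the matches did not separate detected from undetected genes. Matches to TGACNNNGC, a core of the antioxidant response element, numbered 1 in each of the MT2A and MT1X windows and occurred in 13.3% of promoters, and none of them overlapped a capital. A match is a string of letters and was not shown to be bound.

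Input RNA was examined first. MT1E, MT1X and MT1F fell in METTL5-KO to 0.451, 0.404 and 0.292 of their METTL5-WT level, whereas MT2A, the most abundant of the 4, stood at 0.854 and was not called. MT1G had 0 counts in all 4 input libraries, where 3 counts correspond to 0.196 to 0.280 CPM. The remaining 15 family members had at most 2 counts in any library, and 7 of them had 0 throughout, so the metallothionein RNA of these cells came from 4 genes.

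MT2A had 1107 and 1011 input counts in METTL5-WT against 1000 and 1302 in METTL5-KO. After the deposited scaling by library these became 754 and 718 against 603 and 654, or 736 ± 25.0 (SD, n = 2) and 628 ± 36.0 (SD, n = 2). The groups did not overlap, but the fitted input log2 fold change, -0.24 ± 0.12 (SE), was not called (edgeR adjusted p = 0.154). For MT1E the counts were 501 and 455 in METTL5-WT against 234 and 316 in METTL5-KO, with deposited values of 332 ± 12.6 and 150 ± 12.4 (SD, n = 2 each). Both knockout libraries lay well under both wild-type libraries, and the input change was -1.16 ± 0.15 (SE; edgeR adjusted p = 3.30e-06). MT1X counts were 302 and 389 against 145 and 214, and its deposited values of 241 ± 50.1 and 97.4 ± 14.2 (SD, n = 2 each) did not overlap either. Its change was -1.31 ± 0.18 (SE; edgeR adjusted p = 8.92e-06). MT1F was a low gene, with 37 and 44 counts in METTL5-WT against 19 and 10 in METTL5-KO. It gave the largest fitted change of the 4 and the widest error, -1.81 ± 0.46 (SE; edgeR adjusted p = 0.00611), and the call was lost without METTL5-KO replicate 2 (adjusted p = 0.0623) or METTL5-WT replicate 2 (adjusted p = 0.0712). MT2A, in turn, was called once METTL5-KO replicate 2 was left out (adjusted p = 0.0224).

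Among all 14054 genes tested in input, 22.4% were called and 10.6% were called lower, beside 3 of the 4 metallothionein genes. Among the 11240 genes of the TE table, both knockout input values lay under both wild-type values in 31.4%, and they did so in all 4 here. With 2 values against 2, an exact permutation test gave p = 0.333 for each gene in input and RPF, the smallest this design allows.

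**Figure D1:**
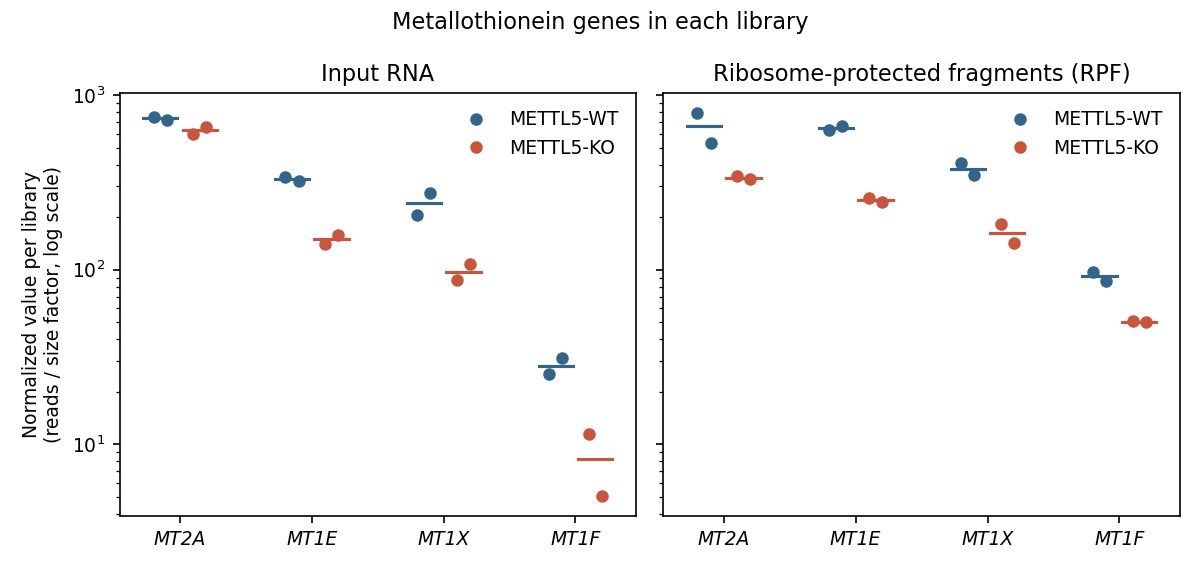
Deposited value (reads divided by a size factor, log scale) of MT2A, MT1E, MT1X and MT1F in each input library (left) and RPF library (right). Points are libraries, horizontal lines are means of 2, blue is METTL5-WT and red is METTL5-KO. The METTL5-KO points lie under the METTL5-WT points for every gene in both panels, with the narrowest gap for MT2A in input.

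The make-up of the metallothionein pool in input differed between genotypes. MT2A contributed 56.9% (95% exact binomial interval 54.6 to 59.1) and 53.2% (50.96 to 55.5) of the input reads of the 4 genes in METTL5-WT, and 71.5% (69.1 to 73.9) and 70.7% (68.6 to 72.8) in METTL5-KO. These intervals cover counting error only. MT1E fell from 25.7% and 24.0% of the pool to 16.7% and 17.2%, without overlap. The ratio of MT2A to MT1E reads was 2.21 and 2.22 in METTL5-WT against 4.27 and 4.12 in METTL5-KO, so the wild-type lysates matched each other closely. MT2A over MT1X was 3.67 and 2.60 against 6.90 and 6.08. Neither ratio overlapped between genotypes, and such ratios, taken within a library, do not depend on how libraries are scaled.

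In RPF libraries the reads assigned to the 4 genes were divided more evenly. Reads lost in mapping, described below, may differ between the genes and affect these shares. MT2A made up 41.1% and 32.7% of the RPF reads of the 4 genes in METTL5-WT against 41.1% and 43.2% in METTL5-KO. The ratio of MT2A to MT1E was 1.26 and 0.802 against 1.33 and 1.36, a narrow separation, and MT2A over MT1X overlapped between genotypes. In RPF the MT2A shares of the genotypes met at 41.1%, so the larger MT2A share of METTL5-KO input had no counterpart beyond the spread between libraries.

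**Figure D2:**
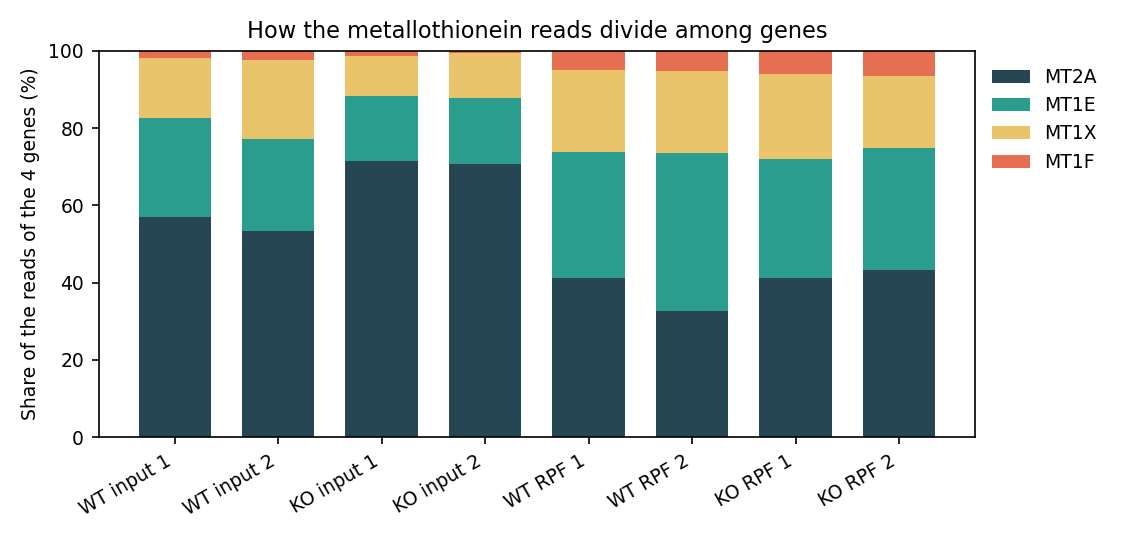
Share of the reads of the 4 detected genes taken by MT2A, MT1E, MT1X and MT1F, as stacked bars in percent for the 4 input and 4 RPF libraries. The MT2A share is 53.2% to 56.9% in METTL5-WT input and 70.7% to 71.5% in METTL5-KO input, and 32.7% to 43.2% across the RPF libraries.

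Ribosome-protected fragments fell for MT2A as well as for the MT1 genes. MT2A had 334 and 267 RPF reads in METTL5-WT against 284 and 297 in the deeper METTL5-KO libraries. Scaled, these were 793 and 535 against 342 and 331, so the wild-type libraries differed from each other far more than the knockout libraries, yet did not overlap them. The RPF change of MT2A was -0.95 ± 0.15 (SE; limma adjusted p = 0.000223; edgeR on recovered reads 1.11e-05), and it was -0.67 without METTL5-WT replicate 1 and -1.23 without METTL5-WT replicate 2, called both times. MT1E went from 632 and 668 to 258 and 243, a change of -1.37 ± 0.15 (SE; limma adjusted p = 4.31e-06; edgeR 4.65e-08). MT1X values of 406 and 347 in METTL5-WT stood against 182 and 142, a change of -1.22 ± 0.21 (SE; limma adjusted p = 0.000377; edgeR 3.25e-05). MT1F values were 97.4 and 86.2 in METTL5-WT against 50.6 and 50.2 in METTL5-KO. They came from 41 to 45 reads per library, and the difference of -0.85 ± 0.40 was not called (SE; limma adjusted p = 0.125; edgeR 0.0704). Limma called 29.3% of 11240 genes in RPF, 13.1% lower, beside 3 of 4 metallothionein genes. The edgeR test called the same 3 and 27.8% of all genes. Values in METTL5-KO under those in METTL5-WT without overlap occurred in 29% of genes and in all 4 here. Summed over the 4 genes, the RPF value was 1929 and 1636 in METTL5-WT against 833.3 and 766 in METTL5-KO, a ratio of 0.449, while the summed input value had a ratio of 0.661.

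RPF reads reach these genes through a short and shared coding sequence. The share of their 30-base coding windows found in no other gene was 46.8% for MT1E, 70.1% for MT1F, 43.5% for MT1X and 38.3% for MT2A. Not a single coding window of MT1E or MT2A differed by over 2 mismatches from every other family gene, and the RPF mapping permitted 2. The authors' settings also excluded reads that map to multiple places, so the share of reads lost may differ between these genes. Single-gene RPF values are therefore uncertain, both in the reads lost and in which copy the kept reads came from. Input reads cover whole transcripts, whose 50-base windows were found in no other gene in 82.0% to 94.7% of cases for the 4. Fewer windows differed by over 2 mismatches from every other family gene: 63.6% for MT2A, 69.3% for MT1E, 71.8% for MT1X and 81.9% for MT1F. The authors' trimming also allowed input reads shorter than 50 bases, so some input reads may come from another copy. MT1X also shares 321 of its 1727 annotated exon bases with a noncoding gene on the same strand (ENSG00000259827). Its exons cover 165 of the 404 bases of the MT1X transcript and 94 of the 183 coding bases. The window searches above left this gene out, so the MT1X shares of 43.5% and 82.0% take no account of it. That gene had 0 counts, and reads in shared bases are left unassigned by the counting program's default.

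Translation efficiency was compared last. None of the 4 genes was called by limma, with 4.79% of 11240 genes called and 2.08% called lower, and at an unadjusted p under 0.05 MT2A alone passed. Its RPF to input ratio was 1.05 and 0.745 in METTL5-WT against 0.568 and 0.507 in METTL5-KO, with no overlap, a pattern of lower values that 25% of genes showed. The TE change of MT2A was -0.72 ± 0.22 (SE; limma adjusted p = 0.0651). It was called by edgeR on recovered reads (-0.77 ± 0.20, adjusted p = 0.0208), where 6.81% of genes were called, 3.68% lower, by DESeq2 (adjusted p = 0.0241), and in limma with the lysate as a block (adjusted p = 0.0259), which pairs each RPF library with the input of the same lysate. The size rested on the METTL5-WT lysates: it was -0.97 without METTL5-WT replicate 2 (adjusted p = 0.0312) and -0.47 without METTL5-WT replicate 1 (adjusted p = 0.321). Without a METTL5-KO replicate it was not called (-0.80 and -0.64, adjusted p = 0.164 and 0.369). Over 17 alternatives it was called in 6, and its adjusted p ran from 0.0208 to 0.369. Coding GC content moved with this result: genes with 60% to under 64% GC, the range of all 5 coding sequences, had a median TE change of -0.28 over 1482 genes, and removing the GC trend left MT2A at -0.42 (adjusted p = 0.280). Short coding sequences of up to 300 bases had a median of 0.20 over 207 genes, and removing the length trend gave -0.91 (adjusted p = 0.0236).

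For MT1E the RPF to input ratio was 1.85 and 2.07 against 1.83 and 1.53, a difference of -0.23 ± 0.21 (SE; limma adjusted p = 0.562). MT1X ratios of 1.98 and 1.26 overlapped those of METTL5-KO, 2.08 and 1.32, and its difference was 0.07 ± 0.30 (SE; limma adjusted p = 0.913). MT1F was higher in both knockout lysates, 4.42 and 9.99 against 3.87 and 2.76, but on 10 to 44 input counts, and its difference of 0.90 ± 0.57 was not called (SE; limma adjusted p = 0.366). The METTL5-KO lysate with the ratio of 9.99 is the one with 10 counts.

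Per kilobase, MT2A was the most abundant of the 4 in input. The METTL5-WT input level per kilobase of transcript was 1835 for MT2A, at the 97.8th percentile of genes, then 597 for MT1X, 472 for MT1E and 66.4 for MT1F. MT1X and MT1E were neighbours, with 509 and 684 against 485 and 459 in the METTL5-WT libraries, and they overlapped in METTL5-KO. Reads in the bases that MT1X shares with the noncoding gene are left unassigned, so its input level per kilobase may be understated. On RPF per kilobase of coding sequence, MT2A at 3631 and MT1E at 3551 overlapped in METTL5-WT, followed by MT1X at 2058 and MT1F at 502. In METTL5-KO the RPF level of MT2A was 1841, now over MT1E at 1369, MT1X at 884.5 and MT1F at 275.5. The per-length TE of MT2A, 1.98 in METTL5-WT, was at the 43.4th percentile of genes, and at 1.18 in METTL5-KO it was at the 19.9th. Those of MT1E were 7.53 and 6.43, at the 93.2nd and 91.0th percentile, with the lower METTL5-KO lysate at 5.89. MT1E was scaled on a transcript of 704 bases, against 401 for MT2A, 404 for MT1X and 425 for MT1F. A longer transcript lowers the input level per kilobase and raises the per-length TE. Which MT1E transcript these cells carry was not tested. The RPF and TE levels of all 4 genes carry the mapping limit given above, so their order may reflect reads lost in mapping.

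The cluster lies in a stretch of chromosome 16 whose RNA was lower as a whole in METTL5-KO. The other 275 tested genes of the long arm had a median input change of -0.47, or 0.720-fold, with 84.4% below 0 and 132 of them (48%) called lower, against a median of 0.00 on all other chromosomes. Of 24 chromosomes and arms, this arm ranked lowest, with chromosome 20 next at -0.43. Both METTL5-KO libraries showed it, at -0.48 and -0.45. Blocks of neighbouring long-arm genes had medians from -0.56, in the block that holds the cluster, to -0.36. On the short arm the median was 0.00, but it was not flat: split into 8 blocks of 41 genes, it ran from 0.27 at the far end to -0.40 in the block nearest the centromere. In RPF the long arm stood at -0.51 (243 genes) and in TE at -0.12. DNA copy number was not measured, and its part in the shift was not tested.

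**Figure D3:**
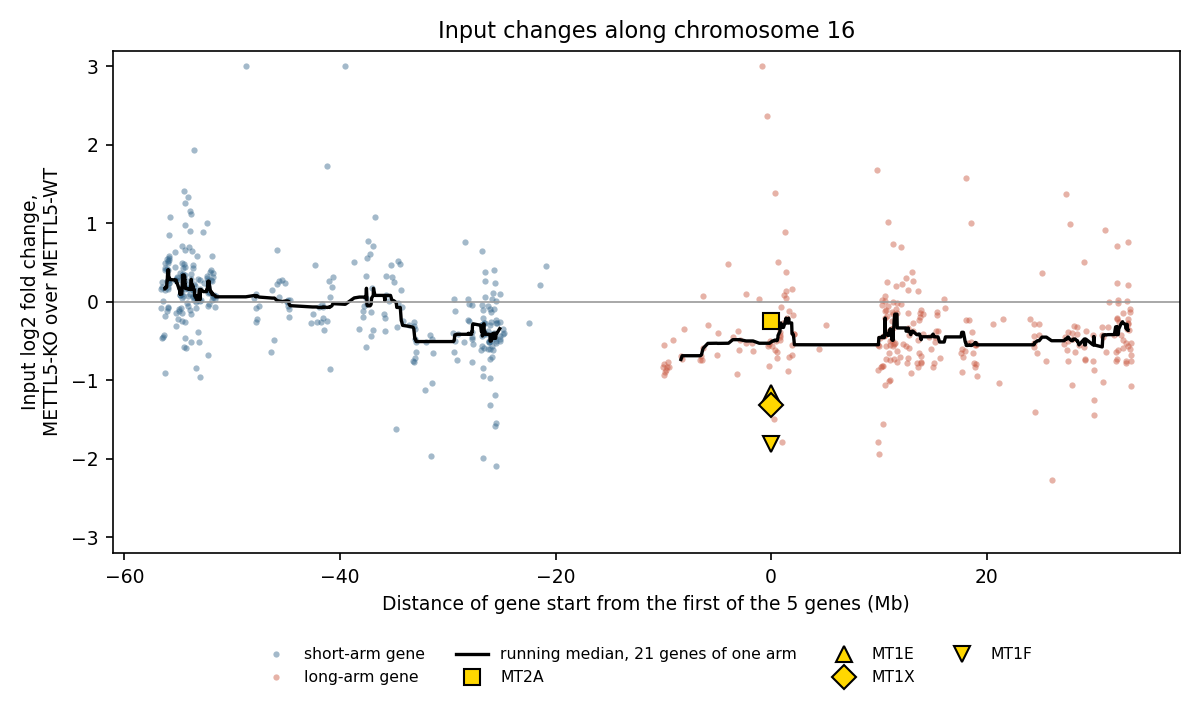
Input log2 fold change (METTL5-KO over METTL5-WT) of tested genes on chromosome 16 by distance of their start from the start of MT2A in Mb; blue points are short-arm genes, red points long-arm genes, black lines the running median of 21 genes within an arm, and yellow symbols the metallothionein genes. The 3 genes beyond 3 on the log2 scale are drawn at the limit. The long-arm running median varies between -0.73 and -0.16 and is -0.53 to -0.50 at the genes next to the cluster. MT2A lies above it there, and MT1E, MT1X and MT1F lie below it.

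Set beside their arm, the metallothionein genes divided. In input, MT1E was 0.68, MT1X 0.84 and MT1F 1.33 log2 units further down than the arm's median, and only 9, 8 and 2 of the 275 other genes had lower values. MT2A was 0.23 log2 units above the median, and 193 of the 275 (70.2%) had lower values. When the libraries were scaled on the long-arm genes instead, MT1E (-0.70 ± 0.15, edgeR adjusted p = 0.000510), MT1X (-0.86 ± 0.18, adjusted p = 0.000509) and MT1F (-1.35 ± 0.47, adjusted p = 0.0183) were still called lower. MT2A turned to 0.22 ± 0.12 (adjusted p = 0.132). This scaling moves the whole of the other chromosomes up by the arm's shift. Under it 7633 of the 14054 genes were called, so a call there does little to set a gene apart.

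In RPF all 4 lay below the arm's median, MT1E by 0.86, MT1X by 0.71, MT2A by 0.44 and MT1F by 0.34. Of 243 other long-arm genes, 12, 15, 35 and 53 had lower RPF values than these, in that order. Centred on the arm, MT1E (-0.87, limma adjusted p = 0.000189), MT1X (-0.72, adjusted p = 0.00770) and MT2A (-0.45, adjusted p = 0.0253) remained called, and MT1F did not (-0.35, adjusted p = 0.489). With this centring 6475 of the 11240 genes were called, so these calls too do little to set a gene apart. The input change of MT2A thus lay above the arm's median and its RPF change below it. Its TE change lay 0.60 below the arm's median, with 23 of 243 genes (9.47%) lower.

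**Figure D4:**
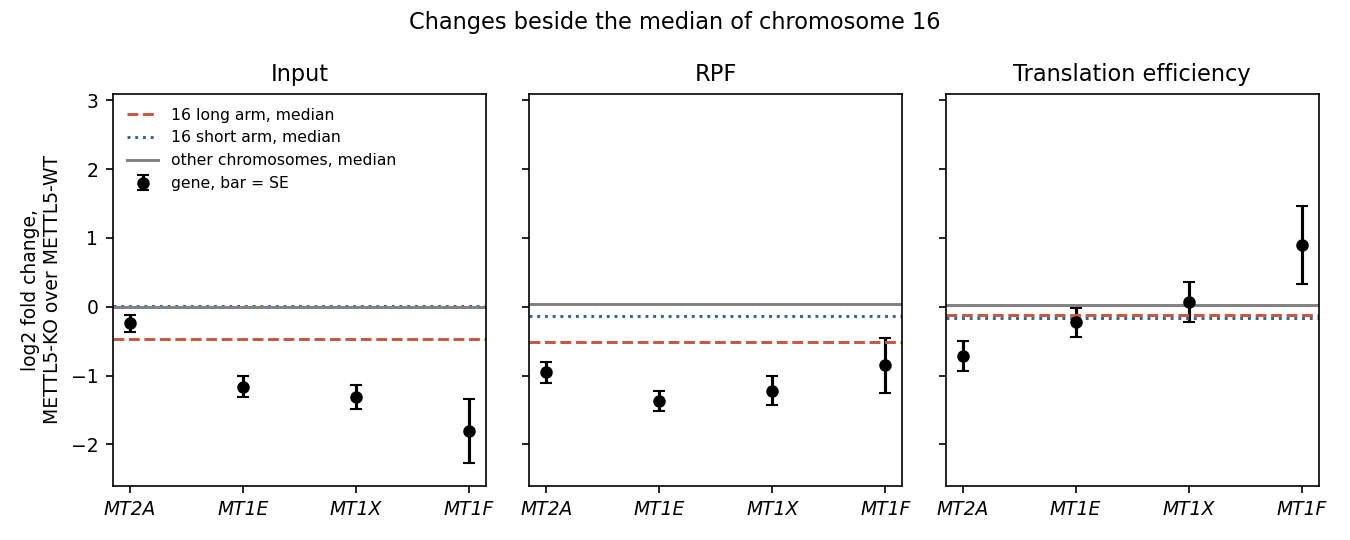
Log2 fold change (METTL5-KO over METTL5-WT) of MT2A, MT1E, MT1X and MT1F in input (edgeR), RPF and TE (limma), as points with SE bars. Horizontal lines are medians of the long arm of chromosome 16 without these genes (red dashed), its short arm (blue dotted) and all other chromosomes (grey). MT2A is above the red line in input and below it in RPF and TE.

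Of the 6 nearest tested genes outside the cluster, 5 were called lower in input, 4 of them by less than any MT1 gene. On one side, NUDT21, a subunit of the cleavage factor for polyadenylation, had an input change of -0.81 ± 0.12 (SE; edgeR adjusted p = 1.88e-05) and an RPF difference of 0.01 ± 0.12 that was not called. It was called higher in TE (0.81 ± 0.17, SE; limma adjusted p = 0.0155), opposite in sign to MT2A, and no other of these neighbours was called in TE. OGFOD1, a prolyl hydroxylase of a ribosomal protein, changed by -0.54 and BBS2, a subunit of the ciliary BBSome, by -0.50 in input. On the other side, NUP93, a scaffold nucleoporin, changed by -0.56 in input and -0.29 in RPF. SLC12A3, the thiazide-sensitive sodium chloride cotransporter, was not called in input (-0.26 ± 0.12, edgeR adjusted p = 0.110) and fell in RPF (-0.69 ± 0.11, limma adjusted p = 0.000182). It shares with MT2A a lower RPF call without an input call. The pseudogene RPS24P17 changed by -1.49 in input on 12 to 43 counts, and its reads may belong to other copies of the ribosomal protein gene.

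Genes that handle the same metals, or answer to the same signals, were taken as lists. Over all genes 11.8% were called higher in input, 16.2% in RPF and 2.7% in TE, and the calls below are from edgeR for input and limma for RPF and TE. Of the metal-responsive list, MTF1, SLC30A1 and SELENOH were tested and none was called in input, RPF or TE (1, 1 and 0 at an unadjusted p under 0.05), with list medians of 0.13, 0.06 and 0.03 beside medians over all genes of 0.00, 0.02 and 0.02. SLC30A1 had 3002 and 2866 input counts in METTL5-WT against 3050 and 3223 in METTL5-KO, a difference of -0.25 ± 0.12 (SE; edgeR adjusted p = 0.120). Of 7 tested zinc transporter genes of the SLC30 family, none was called in input (median -0.10, 2 at an unadjusted p under 0.05) and 1 in RPF (median 0.21), where SLC30A6 of the Golgi fell by 0.49 on the log2 scale.

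Zinc importers of the SLC39 family split. Of 10 tested in input, SLC39A10 (-0.71) and SLC39A6 (-0.33) fell, SLC39A13 (0.73) and SLC39A1 (0.64) rose, and the median was 0.02. In RPF 1 fell and 2 rose, 1 of these also by edgeR (median -0.17), and in TE SLC39A13 fell by 1.21 (limma adjusted p = 0.0475). Copper genes were 12, all tested. In input 1 of them was called, ATOX1, the chaperone that hands copper to the export pumps (0.65, median -0.06). In RPF 4 rose and none fell (median 0.24): SLC31A1, the copper importer (0.72), ATOX1 (0.59), ATP7A, an export pump (0.57), and SCO2 of cytochrome oxidase assembly (0.51).

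Heavy-metal-responsive heat shock genes gave 1 fall and 2 rises among 9 tested in input (median 0.06). HMOX1, the haem-degrading enzyme that oxidative stress and cadmium induce, rose by 1.19 in input (edgeR adjusted p = 3.19e-06) and 1.495 in RPF, opposite in sign to the metallothionein genes. In RPF 4 of the 9 rose and none fell (median 0.25), and in TE HSPA1B alone was called (1.02, limma adjusted p = 0.0495), a gene nearly identical to HSPA1A. Of 7 tested genes of the glucocorticoid receptor list, SGK1 (-1.14), a kinase that controls sodium transport, and KLF9 (-0.71), a zinc finger repressor, fell in input (median -0.10). SGK1, KLF9 and the clock gene PER1 fell in RPF and the receptor gene NR3C1 rose (median -0.20), and PER1 was called lower in TE (-0.93, limma adjusted p = 0.0213).

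The pattern over the 8 libraries was also set beside that of 10623 other genes whose mean reached 10 in both input and RPF. Likeness was the root mean square difference, in log2 units, from the mean profile of the 4 metallothionein genes. P3H2, a collagen prolyl hydroxylase, was closest at 0.068, then the kinase SGK1 at 0.095, MRPL57 of the mitochondrial ribosome and the lipoprotein receptor VLDLR at 0.114 each, and the collagen COL12A1 at 0.119. None of the 5 lies on chromosome 16. That chromosome held only 243 other long-arm and 285 short-arm genes of the 11240 tested in RPF, so this says little about the chromosome. The members' own distances from that mean were larger, 0.177 for MT1X, 0.182 for MT1E, 0.419 for MT1F and 0.459 for MT2A, so the mean profile describes MT1X and MT1E better than MT2A.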

How the data were processed

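The authors trimmed input reads, aligned them to hg38 with STAR 2.7.3a and deposited raw counts per gene from featureCounts, by strand, from uniquely mapped reads. The version is 1.6.0 in the submitters' notes and differs in the file header. RPF reads were size-selected, cleared of ribosomal RNA and passed by the authors to the RiboToolkit server with at most 2 mismatches and no multiple mapping. In the TE table the authors deposited signal values under the name RPKM, but 100% of them are whole reads divided by a factor per library (within 0.02 of a whole number), and input reads equal the count table. Fold change and p-value columns of the authors' own comparisons were not used.

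For input, edgeR 4.0.16 fitted the counts by quasi-likelihood after TMM scaling and filterByExpr, and standard errors were approximated from its F statistic. Limma 3.58.1 with a variance trend tested RPF and TE on log2(value + 1) in all 8 libraries, keeping genes whose mean reached 1 in both input and RPF, and edgeR was run beside it on the recovered reads. The scale understates changes of low genes. Adjusted p-values are Benjamini-Hochberg over all genes, two-sided, with calls under 0.05. DESeq2 1.42.0, R 4.3.3 and Python 3.11.15 were also used, and the models were tested on simulated data. A gene split over 3 damaged lines of the count table was dropped. For MT1E the longest spliced transcript with 3 coding exons was used, as the canonical one retains an intron.

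The genes and lists were chosen with earlier results of these data known. Named genes are the members, the other family genes, the 3 nearest tested genes on each side, up to 4 called genes per list and comparison, the 5 genes of most similar profile, and METTL5. The arms of chromosome 16 were divided at its widest gap between gene starts. The blocks of the short arm were added after the data were seen.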

Additional observations from a re-analysis of the deposited data

How the results depend on the processing

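The input and RPF calls of MT1E and MT1X, and the RPF call of MT2A, held under every alternative run (9 for input, 17 for RPF), with changes from -1.25 to -0.70 for MT1E and -1.51 to -0.86 for MT1X in input, and in RPF from -1.65 to -0.87 for MT1E, -1.50 to -0.72 for MT1X and -1.23 to -0.45 for MT2A. MT2A turned direction in input when scaled on long-arm genes of chromosome 16 (0.22). MT1E turned in TE with the GC trend removed (0.079), and MT1X in TE with the length trend removed (-0.12), neither of them called. MT1X also turned in TE without METTL5-KO replicate 1 and without METTL5-WT replicate 2 (-0.26 each), and was not called. Over the fits without 1 lysate its TE change ran from -0.26 to 0.40. MT1F was called in RPF only with the length trend removed (adjusted p = 0.0478). In TE, 1 member was called in place of 0, MT2A each time, under edgeR, DESeq2, both blocks and the length trend removed. Whether MT2A was called also depended on which lysate was left out. The cause of these changes was not tested. Among flanking genes, 10 on each side in place of 20 moved the median from -0.45 to -0.51 in input, from -0.39 to -0.26 in RPF and from -0.12 to 0.0156 in TE.

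Counts over all genes moved more. Input calls were 3149, 7633 scaled on the long arm, and 1220 to 5474 with 1 library left out. RPF calls were 3288, 6475 centred on the long arm, and 1986 to 2772 with 1 library left out. TE calls were 538, then 1 without the variance trend, 838 by DESeq2, 301 with the GC trend removed, and 4 to 266 with 1 library left out, the lowest without METTL5-KO replicate 2. Left-out fits leave a lone sample that is assumed to vary like the other groups. Replicate numbers did not pair wild-type with knockout samples (correlation of the differences 0.04 in input and 0.00 in RPF). Fitted all the same, the replicate block by number called 3554 genes in input, 3513 in RPF and 764 in TE, with MT2A called in TE (adjusted p = 0.0322) and no other member call changed. The lysate block, which follows from the lysates being divided, called 794 in TE.

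Depth limits MT1F most: with 2 libraries per group and 10 to 44 input counts, the standard errors of its RPF and TE differences were 0.40 and 0.57 log2 units, and differences of -0.85 and 0.90 did not pass the test.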
